A study of Saccharomyces cerevisiae with 8 samples.

Results

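The 246 regions described here are stretches of RNA on which tagged Pho92 left a strong peak in both libraries of an ime4 mutant. They were chosen from 105079 regions, each made by merging touching same-strand peaks of the 4 irradiated libraries with tagged Pho92. A region was kept when its summed normalized h2w score, the score the authors deposited for each peak, was above 0.9 in both ime4 mutant libraries, whatever its score with IME4 present. A further 47 regions that met the score limit lie on contig NCSL01000092.1 and were left out by the same rule. The scores in the ime4 mutant therefore chose the regions, and every value of that mutant below is a description.

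Pho92 is the YTH-domain protein of budding yeast, and the YTH domain binds m6A, a methyl mark on adenosines of mRNA. In this yeast the mark is made during meiosis by a complex whose catalytic subunit is Ime4, so cells without Ime4 activity do not make it. CRAC crosslinks a protein to the RNA it touches with UV light, purifies the protein under denaturing conditions through its HTP tag and sequences the attached RNA.

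The study profiled diploid SK1 pCUP-IME1 yeast, in which copper turns on IME1, the master regulator of entry into meiosis. All cultures received 50 μM copper sulfate after 2 h in sporulation medium (SPO) and were taken at 5 h, which is 3 h after induction, per the labels' protocols. There were 4 groups of 2 libraries. The first carried Pho92-HTP in an ime4 mutant, the second Pho92-HTP with IME4 intact, and both were irradiated at 254 nm for 80 s. The controls were Pho92-HTP cells that received no UV (no UV) and irradiated wild-type cells with no tag (untagged). Each sample also received crosslinked fission yeast cells with Luc7-HTP as a spike-in. The labels do not describe the ime4 allele further, and the deposited lists name it ime4ko. The series text calls the 2 libraries of each group biological replicates. Cultures were profiled in bulk, so fewer cells in meiosis and less bound RNA per cell cannot be told apart.

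A peak's score equals its squared height over its width, times 1 spike-in factor per library, so a score ratio is close to the square of a height ratio. The lists held 47377 and 60778 peaks for the ime4 mutant, 66344 and 41604 for Pho92-HTP, 2925 and 2462 without UV, and 2659 and 2138 for untagged cells. Converted to reads at the summit, a peak 32 nt wide reached a score of 0.9 with 153 and 201 reads in the ime4 mutant libraries, 202 and 82.9 in Pho92-HTP, 308 and 234 without UV, and 190 and 230 in untagged cells. The second Pho92-HTP library stands apart in its factor of 5.92, against 1 in the first, so equal scores there rest on fewer reads. Total reads per library are unknown, and a region with no listed peak was set to 0, which does not show absence of signal.

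In the ime4 mutant the median score of the 246 regions was 10.1 and 7.20, with quartiles of 3.13 to 149 in replicate 1 and 2.29 to 61.6 in replicate 2. In Pho92-HTP the median was 7.70 and 13.3, with quartiles of 1.74 to 51.0 and 3.58 to 173.5. The ranges overlapped broadly, and the medians of the genotypes overlapped as well. The medians were 0.00141 and 0.00135 without UV and 0.00101 and 0.000270 in untagged cells, below those of every irradiated tagged library. A peak was listed in 231 and 238 of the 246 regions in Pho92-HTP, in 208 and 197 without UV and in 201 and 187 in untagged cells. In summit reads the medians were 544 and 615 for the ime4 mutant, 673 and 341 for Pho92-HTP, 12.9 and 9.12 without UV and 6.38 and 3.996 for untagged cells. The median region in the controls thus rested on at most 12.9 reads.

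**Figure D1:**
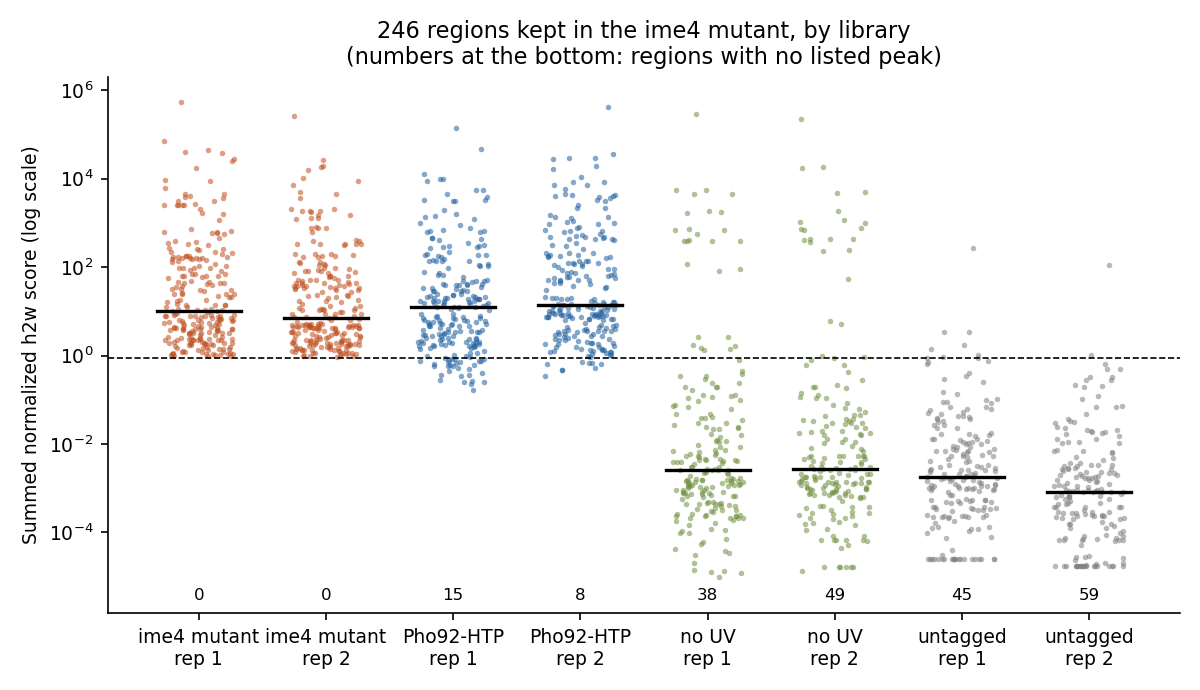
Summed normalized h2w score (log scale) of each of the 246 regions in each of the 8 libraries; black bars are medians of the regions with a listed peak, the dashed line is 0.9, and the numbers at the bottom count regions with no listed peak. The irradiated tagged libraries cover similar ranges, 27 and 24 regions exceed 0.9 without UV, and 7 and 2 do so in untagged cells.

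By the Pho92-HTP score alone, the label of these regions as strong Pho92 sites holds for most but not all of them. With IME4 intact, 195 regions were above 0.9 in both Pho92-HTP libraries, 41 in 1 of them and 10 in neither. The 195 include all 27 regions that were also above 0.9 in a library without UV, described below. In 21 regions at least 1 Pho92-HTP library listed no peak, and in 2 regions neither did. All 15 regions unlisted in Pho92-HTP replicate 1 had a peak above 0.9 within 50 nt there, as did 6 of the 8 unlisted in replicate 2.

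The regions took 57.7% and 24.9% of the whole library's score in the ime4 mutant, 21.3% and 35.3% in Pho92-HTP, 99.9% in each library without UV, and 4.80% and 7.003% in untagged cells. A single region, NCSL01000010.1:76774-76805 on the plus strand, held much of this. It scored 540718 and 261954 in the ime4 mutant and 139280 and 423189 in Pho92-HTP. It scored 294379 and 217856 without UV, against 265 and 109 in untagged cells. The 6 tagged libraries overlapped and all lay above both untagged ones. Without this region the share was 34.9% and 10.8% in the ime4 mutant, 12.1% and 17.6% in Pho92-HTP, and 0.339% and 0.360% in untagged cells, while without UV it was 99.4% and 99.6%.

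Among the 225 regions listed in both Pho92-HTP libraries, the score in the ime4 mutant over that in Pho92-HTP (geometric means of 2 libraries) had a median of 1.35 and quartiles of 0.873 to 1.82. The ratio was within 2-fold in 151 of them (67.1%), and the corresponding height ratio was within 2-fold in 87.6%. The ratio between replicates was of similar or larger size, with a median of 1.47 for ime4 mutant replicate 1 over 2 and 0.385 for Pho92-HTP replicate 1 over 2. Set against single libraries, the median ratio of ime4 mutant replicate 1 was 2.83 over Pho92-HTP replicate 1 and 1.05 over replicate 2. For ime4 mutant replicate 2 the medians were 1.88 and 0.622, so the side of 1 on which the typical region fell depended on the library chosen. Both ime4 mutant values were above both Pho92-HTP values in 44 regions, below both in 33 and overlapping in 169. Over all 964 tested regions the counts were 53 above, 661 below and 250 overlapping.

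A limma fit of the 4 libraries called 22 regions lower and 6 higher in the ime4 mutant, beside 60.0% lower and 0.728% higher among all 961 regions tested. The choice of regions used this contrast, so these counts describe the regions and are no test of them. The median log2 difference in score, ime4 mutant minus Pho92-HTP, was 0.55, against -6.95 over all tested regions. Without Pho92-HTP replicate 1 the median over the 246 regions was -0.29, and without Pho92-HTP replicate 2 it was 1.27. Over all tested regions the medians were then -7.00 and -7.19. Without ime4 mutant replicate 1 the median over the 246 regions was 0.14, and without ime4 mutant replicate 2 it was 0.83. Scaling by a trimmed mean of the tested regions, which moved the median of all tested regions by 5.28, gave 205 higher and 5 lower, beside 308 and 254 over all tested regions.

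**Figure D2:**
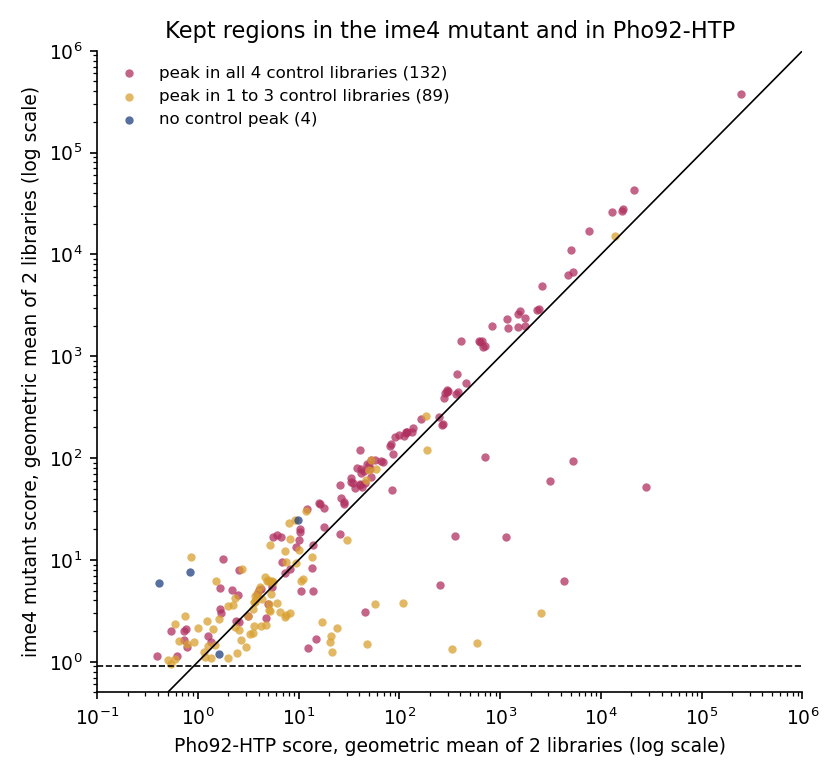
Score in the ime4 mutant against score in Pho92-HTP (geometric means of 2 libraries, both axes on a log scale) for the 225 regions listed in both Pho92-HTP libraries, coloured by how many of the 4 control libraries list a peak; the solid line marks equality and the dashed line 0.9. Most regions lie near the line, with 159 above it and 66 below, and a scatter of regions far to the right holds those called lower in the mutant.

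The 22 regions called lower had medians of 3.83 and 2.20 in the ime4 mutant and 150 and 160 in Pho92-HTP. They were kept by the rule although their score in the mutant was 0.00118 to 0.148 of that in Pho92-HTP, with a median ratio of 0.0414. NCSL01000012.1:233090-233154 on the minus strand scored 2.20 and 4.17 in the ime4 mutant, against 1962 and 3339 in Pho92-HTP. NCSL01000017.1:133552-133593 on the minus strand scored 8.31 and 4.74 in the mutant, against 3284 and 5734. NCSL01000027.1:112222-112282 on the minus strand scored 48.1 and 56.0 in the mutant, against 47403 and 16797. In each of these 3 regions the genotypes did not overlap, and the gap was far wider than that between replicates. They are among the 5 regions picked for the lowest difference from Pho92-HTP, so this gap follows from the choice. NCSL01000040.1:35944-36009 scored 1.11 and 2.09 in the mutant, against 424 and 816, and NCSL01000035.1:50205-50263 scored 1.32 and 1.34, against 195 and 569, both on the minus strand. These regions stand out through their high Pho92-HTP scores, so their calls against the controls are not given as a result.

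At the other end, NCSL01000052.1:41444-41475 on the minus strand scored 17.0 and 4.17 in the ime4 mutant with no listed peak in either Pho92-HTP library. NCSL01000006.1:66462-66495 on the plus strand scored 2.94 and 1.91 in the mutant, again with none in Pho92-HTP. Both had Pho92-HTP peaks within 50 nt, of 12.2 and 4.46 beside the first and 2.77 and 2.35 beside the second, and the part of peak listing in these differences was not tested. The remaining regions with the largest differences, NCSL01000008.1:1190-1212 on the minus strand, NCSL01000058.1:595-626 and NCSL01000020.1:120727-120748 on the plus strand, each lacked a peak in 1 Pho92-HTP library. NCSL01000008.1:1190-1212 scored 80.8 and 109 in the ime4 mutant, against no listed peak and 74.9 in Pho92-HTP. Beside it, within 50 nt, Pho92-HTP peaks reached 9934 and 18841.

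Of the 10 regions above 0.9 in neither Pho92-HTP library, 6 had a listed peak in both. NCSL01000017.1:77655-77690 on the minus strand scored 7.69 and 4.54 in the ime4 mutant, against 0.262 and 0.646 in Pho92-HTP, and no control library listed a peak. No stronger Pho92-HTP peak lay within 50 nt. In all 10 regions the genotypes cannot overlap, since only the mutant's values are above 0.9 by the choice made here. NCSL01000003.1:288010-288054 on the minus strand scored 2.51 and 3.12 in the mutant, against 0.835 and 0.670. The other 4 listed in both, NCSL01000004.1:355956-355990, NCSL01000006.1:274093-274173, NCSL01000002.1:389319-389359 (all minus strand) and NCSL01000002.1:218700-218753 (plus strand), scored 0.998 to 3.54 in the mutant and at most 0.851 in Pho92-HTP. NCSL01000020.1:121446-121477 and NCSL01000058.1:595-626, both on the plus strand, were unlisted in Pho92-HTP replicate 2. The first scored 1.06 and 1.605 in the mutant, against 0.567 in Pho92-HTP replicate 1, and the second 5.73 and 4.67, against 0.279. Within 50 nt of the first, Pho92-HTP peaks reached 2.08 and 14.7, above its scores in the mutant, while within 50 nt of the second they reached 0.279 and 0.297.

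Of the 6 regions called higher in the mutant, 4 had listed peaks in both Pho92-HTP libraries. Besides NCSL01000017.1:77655-77690, NCSL01000060.1:489-543 on the minus strand scored 7.23 and 7.99 in the mutant, against 0.935 and 0.733 in Pho92-HTP. NCSL01000058.1:443-506 on the plus strand scored 9.38 and 11.9, against 0.362 and 1.96. NCSL01000008.1:273726-273771 on the plus strand scored 14.1 and 7.46, against 1.47 and 2.13. In all 4 the mutant's lower value was above the higher Pho92-HTP value. This adds no support, since these regions were taken for being called higher on the same values. The last 2 were named after their values had been seen.

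A control library listed a peak in 242 of the 246 regions (98.4%) and in 399 of the 665 other tested regions outside contig NCSL01000092.1 (60.0%). All 4 control libraries did so in 136 kept regions (55.3%), against 17 of the others (2.56%). A peak was listed in a library without UV in 219 kept regions and in an untagged library in 226, with 203 in both kinds, 16 without UV only and 23 in untagged cells only. Control peaks scored above 0.9 in 29 regions, so most listed control peaks were weak. Kept regions with Pho92-HTP scores between their quartiles (3.16 to 92.1) numbered 113, of which 112 had a control peak (99.1%) and 60 had one in all 4 libraries (53.1%). Of the 327 other regions in the same Pho92-HTP score range, 206 had a control peak (63.0%) and 4 had one in all 4 libraries (1.22%). Scores within this range were not matched further, and the part of Pho92-HTP level in the listing was not tested.

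**Figure D3:**
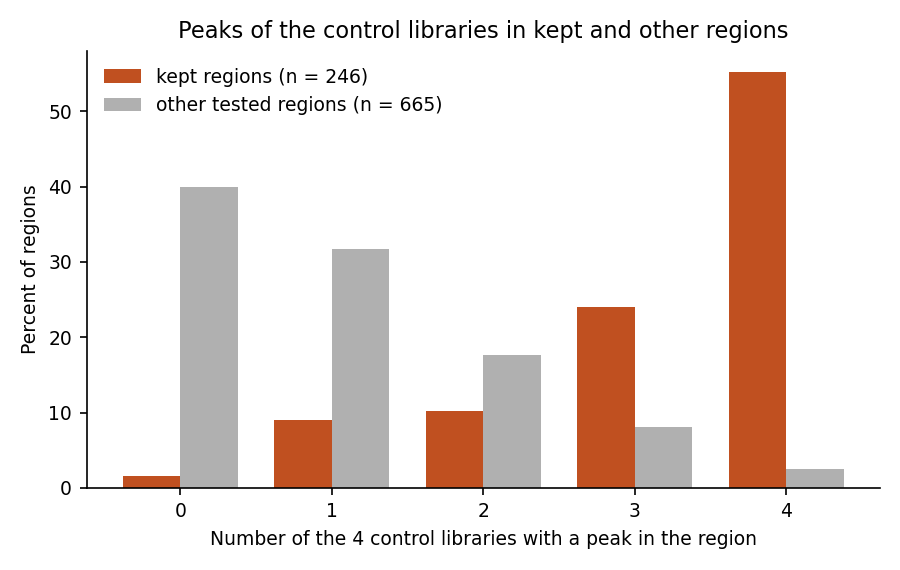
Percent of regions (vertical axis) by the number of control libraries, without UV or untagged, that list a peak there (horizontal axis), for the 246 kept regions and the 665 other tested regions outside contig NCSL01000092.1. Kept regions are mostly listed in 4 control libraries (136 of 246), and the others mostly in 0 (266) or 1 (211).

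Regions listed in all 4 control libraries were the stronger ones. Their median scores were 75.9 and 41.9 in the ime4 mutant and 23.9 and 97.3 in Pho92-HTP, while the 110 regions listed in fewer control libraries had medians of 3.66 and 3.18 in the mutant and 2.44 and 6.77 in Pho92-HTP. The ratio of ime4 mutant over Pho92-HTP had a median of 1.53 (quartiles 1.19 to 1.83, n = 132) in the first set and of 1.09 (0.584 to 1.70, n = 93) in the second. The quartiles of the first set lay above 1 and those of the second on both sides of it.

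A total of 4 regions had no control peak within them, but all except 1 of these had one within 50 nt. NCSL01000034.1:95589-95618 on the minus strand, the strongest, scored 26.1 and 23.4 in the ime4 mutant and 5.201 and 18.9 in Pho92-HTP, and peaks without UV within 50 nt of it reached 1.74 and 0.951. NCSL01000034.1:93365-93406 on the plus strand scored 1.06 and 1.33 in the mutant and 2.02 and 1.32 in Pho92-HTP. The other 2, NCSL01000060.1:489-543 and NCSL01000017.1:77655-77690, are those with higher scores in the mutant described above, and the second of them is the one with no control peak within 50 nt.

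Pho92-HTP against the controls is a contrast that the choice of regions did not use. All 246 regions entered the fit, since both ime4 mutant values put them past its filter of 0.9 in at least 2 libraries. Against untagged cells, 225 regions were higher in Pho92-HTP (limma on all 8 libraries, Benjamini-Hochberg adjusted p threshold 0.05) and 0 were lower, also at an unadjusted 0.05. Among all 964 tested regions 94.7% were higher, against 91.5% of the kept regions. Most other tested regions passed the filter through Pho92-HTP itself, so these shares do not compare like with like. The median log2 difference in score was 14.89 over the kept regions (median SE 1.31) and 16.36 over all tested regions. The 21 regions not called are the 21 without a listed peak in at least 1 Pho92-HTP library. Over the 155 regions listed in all 4 libraries of this contrast the median was 14.60, and all were called. Without Pho92-HTP replicate 1 or untagged replicate 2, 1 region was called lower, and without Pho92-HTP replicate 2, 2 were. Under the trimmed-mean scaling, which moved the median of all tested regions by -4.23, 22 kept regions (8.94%) were higher and 17 lower, beside 408 (42.3%) and 37 over all tested regions. With library totals 171 kept regions (69.5%) were higher and 1 lower, beside 763 (79.1%) and 4 over all tested regions.

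Against Pho92-HTP without UV, 198 of the 246 were higher in irradiated Pho92-HTP and 0 lower, also at an unadjusted 0.05, beside 92.1% higher over all tested regions. The called regions were 80.5% of the kept ones, and the caution on the filter holds here too. Their median log2 difference in score was 12.45, against 16.17 over all tested regions. Of the 48 not called, 21 lacked a listed peak in a Pho92-HTP library, 24 others were above 0.9 in a library without UV, and 3 were neither. These 3, named after their values were seen, are NCSL01000006.1:389879-389912, NCSL01000019.1:23303-23333 and NCSL01000035.1:35568-35599, all on the minus strand. The first scored 0.491 and 1.20 in Pho92-HTP, against 0.289 and 0.107 without UV (log2 difference 2.13, SE 0.89, limma adjusted p 0.0607). Without the spike-in factors the split was 193 higher and 13 lower, with library totals 177 and 15, and under the trimmed mean, which moved the median of all tested regions by -5.71, 27 and 42. Over all tested regions the fit without spike-in factors gave 882 higher and 14 lower, the library totals 855 and 15, and the trimmed mean 370 and 61. Without Pho92-HTP replicate 2, 8 regions were called lower.

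Between the controls, 42 regions were higher without UV than in untagged cells and 7 lower, beside 5.08% higher and 1.56% lower over all tested regions. The kept regions thus made up 42 of the 49 regions called higher. Their median log2 difference in score, no UV minus untagged, was 2.09, against 0 over all tested regions. Scaling by library total turned this median to -2.80, with 31 regions higher and 77 lower, beside 45 and 144 over all tested regions. The factors in the deposited table gave 68 higher and 7 lower, beside 91 and 16 over all tested regions. With no filter on low scores 5 were higher and 0 lower, beside 9 and 4 over all 105079 regions. With a pseudocount of 0.9 the counts were 20 and 0, beside 20 and 3 over all tested regions. At an unadjusted 0.05 the counts were 87 and 21. Among the 136 regions listed in all 4 control libraries, 36 were higher and 0 lower. Of the 7 regions called lower, 4 had no listed peak in either library without UV, and they include NCSL01000008.1:1260-1291, whose neighbouring peaks are given below.

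**Figure D4:**
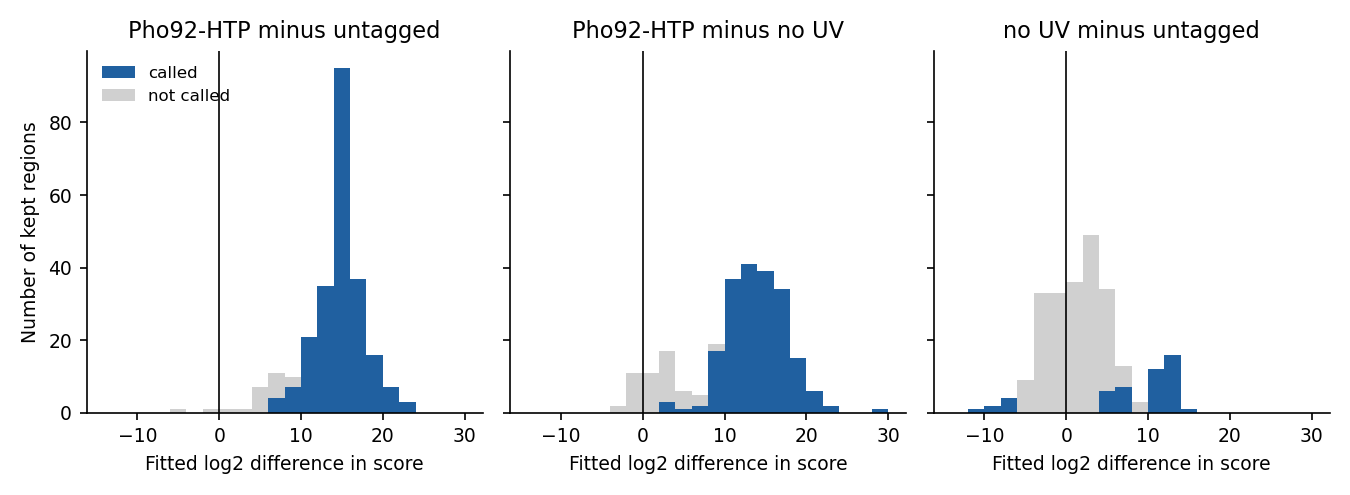
Number of kept regions (vertical axis) by fitted log2 difference in score (horizontal axis) for Pho92-HTP minus untagged, Pho92-HTP minus no UV and no UV minus untagged; blue marks regions called at an adjusted p threshold of 0.05 and grey those not called. The first contrast lies mostly far right of 0, with a few uncalled regions near or left of 0. The second has a group of uncalled regions near 0, and the third is spread around 2.09 with its called regions at both ends.

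Of the 246 regions, 27 were above 0.9 in a library without UV, 24 of them in both. Their medians were 2479 and 755 in the ime4 mutant, 292 and 1074 in Pho92-HTP, 395 and 427 without UV and 0.103 and 0.0249 in untagged cells. The tagged libraries overlapped, and the untagged medians lay below all of them. The score without UV over that of irradiated Pho92-HTP had a median of 0.909 (0.000492 to 1.95), with 17 regions above 0.5 and 11 above 1. With the factors of the deposited table the median was 1.498 (0.000810 to 3.21), with 18 above 0.5 and 16 above 1, so the side of 1 depends on which factors hold. All 27 were above 0.9 in both Pho92-HTP libraries. Since they were picked for a high score without UV, no test of no UV against untagged cells is given for them. In 3 regions irradiated Pho92-HTP was called higher than no UV, namely NCSL01000037.1:33-68 on the plus strand, NCSL01000016.1:111284-111317 on the plus strand and NCSL01000009.1:300828-300870 on the minus strand. The ime4 mutant over Pho92-HTP ratio of the 27 (geometric means) ran from 1.21 to 2.86, and 0 of them were called different between the genotypes. The side of 1 depended on the library, as the median of 755 in mutant replicate 2 was below the 1074 in Pho92-HTP replicate 2. Their lengths ran from 29 to 57 nt, with 20 at 35 nt or less.

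After NCSL01000010.1:76774-76805, the strongest of these were NCSL01000002.1:149968-149998 and NCSL01000001.1:445225-445256, both on the plus strand. NCSL01000002.1:149968-149998 scored 39748 and 19311 in the ime4 mutant and 9595 and 28260 in Pho92-HTP, with 5436 and 18148 without UV, against 3.41 and 1.00 in untagged cells. NCSL01000001.1:445225-445256 scored 38582 and 18548 in the mutant and 9067 and 28994 in Pho92-HTP, with 5669 and 17651 without UV, against 3.43 and 0.655 in untagged cells. In both regions the scores without UV fell among or below those of the irradiated libraries and above the untagged ones by over 3 orders of magnitude. NCSL01000009.1:88258-88289 and NCSL01000009.1:347149-347180 on the minus strand likewise scored 4558 and 4975, and 4476 and 4648, without UV, against at most 1.73 in untagged cells.

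Among regions listed in all 4 libraries, 3 had the most negative difference of irradiated Pho92-HTP minus no UV, and they were picked for it. NCSL01000002.1:322678-322735 on the plus strand scored 40.8 and 185 in Pho92-HTP, against 119 and 240 without UV (log2 difference -0.96, SE 1.05, limma adjusted p 0.413). NCSL01000011.1:300989-301020 on the minus strand scored 647 and 2132, against 1658 and 1835 (-0.57, SE 0.95, adjusted p 0.588). NCSL01000005.1:195070-195117 on the minus strand scored 167 and 482, against 380 and 432 (-0.52, SE 0.82, adjusted p 0.569). The groups overlapped in all 3, and the differences turned positive without Pho92-HTP replicate 1. With scores not scaled by the spike-in, all 3 were called lower in irradiated Pho92-HTP, by log2 differences of -3.07, -2.68 and -2.62, and library totals and the trimmed mean also called them lower.

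**Figure D5:**
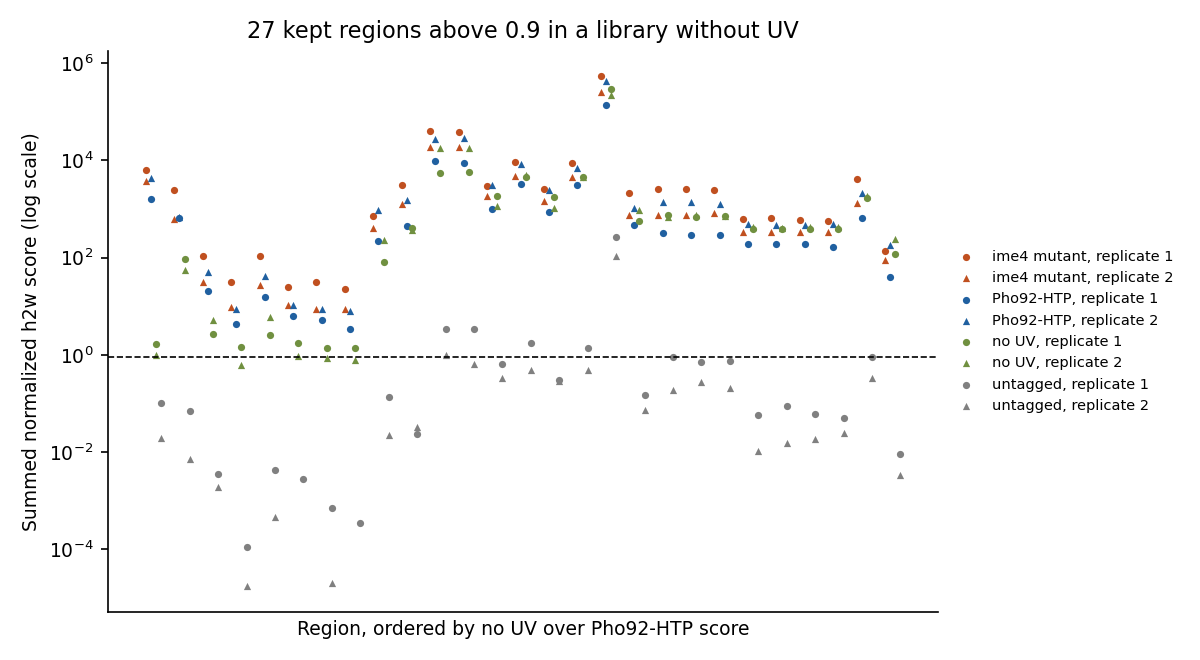
Summed normalized h2w score (log scale) in each library for the 27 regions above 0.9 in a library without UV, ordered along the horizontal axis by the score without UV over that in Pho92-HTP; colours mark groups, circles replicate 1 and triangles replicate 2, and the dashed line is 0.9. From left to right the scores without UV move up into the range of the irradiated tagged libraries, while the untagged scores stay below every tagged one of the same region.

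Other regions of similar strength in the tagged, irradiated libraries stayed below 0.9 without UV. NCSL01000008.1:152984-153016 on the plus strand scored 70323 and 26578 in the ime4 mutant and 12557 and 35231 in Pho92-HTP, against 0.234 and 0.0520 without UV and 1.05 and 0.217 in untagged cells. NCSL01000013.1:74995-75027 on the minus strand scored 43285 and 15859 in the mutant and 5598 and 29547 in Pho92-HTP, against 0.440 and 0.145 without UV and 0.947 and 0.105 in untagged cells. Both controls lay over 3 orders of magnitude below the tagged, irradiated libraries and overlapped each other. In summit reads the first had 160 and 59.5 without UV and the second 219 and 95.2, well above the median kept region. These are the 2 regions above 0.9 in an untagged library that were not above it without UV. For the first, Pho92-HTP was higher than no UV by a log2 difference of 17.54 (SE 1.23). That region was set apart here for a low score without UV, so no p-value is given for this difference. Pho92-HTP was higher than untagged there by 15.43 (SE 1.23, limma adjusted p 4.35e-05).

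NCSL01000016.1:51417-51449 and NCSL01000005.1:86941-86973, both on the minus strand, had the same pattern. The first scored 27624 and 10443 in the ime4 mutant and 5402 and 10721 in Pho92-HTP, and the second 17441 and 6995 in the mutant and 3154 and 8200 in Pho92-HTP. Neither exceeded 0.405 in any control library. NCSL01000008.1:1260-1291 on the minus strand scored 25425 and 9036 in the mutant and 9934 and 18841 in Pho92-HTP, had no listed peak without UV, and scored 0.0467 and 0.0466 in untagged cells. It was lower without UV than in untagged cells by the limma fit (adjusted p 0.000889), where the size of the difference depends on the value set for an unlisted peak. Peaks without UV within 50 nt of it reached 0.370 and 0.278, above both untagged scores, so this call rests on which peak positions were listed.

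The kept regions, each a union of touching peaks, were short. Their median length was 36 nt (quartiles 33 to 44, range 21 to 104), against 50 nt (38 to 63) for the 665 others. The peaks themselves were of similar width, with medians per irradiated tagged library of 33 to 34 nt in kept regions and 32 to 33 nt in the others. Of the kept regions, 243 held at most 1 peak in each of these 4 libraries, as did 582 of the others. The 22 regions called lower in the mutant had a median length of 50 nt. Peak centres of the 2 ime4 mutant libraries lay within 1 nt of each other in 67.5% of regions. Centres in Pho92-HTP lay within 1 nt of the mutant's mean centre in 64.9% and 56.7% of the regions listed, and within 5 nt in 87.0% and 84.9%. In the controls the share within 5 nt was 50.0% and 45.7% without UV and 56.7% in each untagged library, where peaks rest on few reads.

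Across regions listed in both libraries of a pair, log2 scores in the ime4 mutant correlated with those in Pho92-HTP at Pearson's r of 0.80 to 0.89 (n = 231 and 238), against 0.98 between the ime4 mutant replicates (n = 246). With no UV r was 0.70 to 0.73 (n = 208 and 197) and with untagged cells 0.69 to 0.72 (n = 201 and 187). These values describe regions within libraries, which share depth and RNA abundance and are not independent replicates. RNA abundance in these cells was not analysed here.

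The regions lay on 60 contigs, 109 on the plus strand and 137 on the minus strand. NCSL01000002.1 held the most, 17, then NCSL01000008.1 with 13, NCSL01000020.1 with 12, and NCSL01000001.1, NCSL01000006.1, NCSL01000027.1 and NCSL01000052.1 with 11 each. Of the 21 regions tested on NCSL01000020.1, 12 were kept (57.1%), as were 11 of 19 on NCSL01000027.1 (57.9%) and 11 of 20 on NCSL01000052.1, against 17 of 54 on NCSL01000002.1 (31.5%). Over all tested regions, the contig left out included, 246 of 964 were kept. A single cluster, described below, holds 10 of those on NCSL01000020.1, and another holds 9 of those on NCSL01000027.1. Some contigs with fewer tested regions had higher shares, such as NCSL01000034.1 with 5 of 8 (62.5%). A total of 9 regions began within the first 100 nt of a contig. Coordinates are those of the authors' lists, and since no annotation of these contigs was used here, no gene or transcript part is named.

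When regions within 500 nt on 1 strand were chained, 177 stood alone and 69 fell into 21 clusters. The largest, NCSL01000020.1:120648-121693 on the plus strand, held 10 regions whose scores summed to 292 and 205 in the ime4 mutant and 85.7 and 91.3 in Pho92-HTP. Both mutant sums were above both Pho92-HTP sums. The highest single scores in it were 175 and 82.7 in the mutant and 49.6 and 32.9 in Pho92-HTP. The next, NCSL01000027.1:15490-16679 on the minus strand, held 9 regions with sums of 40.5 and 30.0 in the mutant, against 497 and 352 in Pho92-HTP, the opposite order. Single scores reached 17.9 and 16.1 in the mutant and 418 and 300 in Pho92-HTP, so the Pho92-HTP sums rest mostly on their highest value. NCSL01000008.1:790-1291 on the minus strand held 6 regions with sums of 27334 and 10650 in the mutant and 10370 and 19698 in Pho92-HTP, and here the genotypes overlapped. Most of each sum came from NCSL01000008.1:1260-1291, with 25425 and 9036 in the mutant and 9934 and 18841 in Pho92-HTP. NCSL01000052.1:41044-41802 on the minus strand also held 6, with 88.3 and 28.4 in the mutant and 43.0 and 28.8 in Pho92-HTP, again overlapping. Whether regions of 1 cluster lie on a single transcript was not tested, so they are not taken as independent examples.

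Among the 132 regions listed in all 8 libraries, 16 of 8646 possible pairs had scores within 2-fold of each other in every library, and these pairs involved 22 regions. On the minus strand, NCSL01000019.1:162437-162468 and NCSL01000032.1:103559-103590 differed by at most 1.21-fold. The first scored 2479 and 812 in the ime4 mutant, 292 and 1267 in Pho92-HTP, 707 and 715 without UV and 0.734 and 0.205 in untagged cells. NCSL01000016.1:119530-119561 on the same strand was within 1.44-fold of both. NCSL01000009.1:88258-88289 and NCSL01000009.1:347149-347180 differed by at most 1.24-fold, and 4 regions that include NCSL01000005.1:195070-195117 formed pairs within 1.33-fold to 1.79-fold. Reads of near-identical copies could be split or shared by an aligner, so levels of such regions are uncertain. Whether these pairs share sequence was not tested.

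Near the limit of 0.9 the choice rests on small differences. Just inside were NCSL01000001.1:221670-221703 with 0.997 and 0.907 in the ime4 mutant, NCSL01000001.1:179253-179287 with 0.956 and 1.14, and NCSL01000015.1:33508-33554 with 0.958 and 1.61, all on the plus strand. Just outside were NCSL01000040.1:35458-35506 on the minus strand with 0.8996 and 0.943, and, on the plus strand, NCSL01000001.1:26883-26938 with 0.893 and 1.23 and NCSL01000003.1:456960-457000 with 0.875 and 1.38. Pho92-HTP scored 25.3 and 18.5 at NCSL01000015.1:33508-33554, against 0.249 and 1.19 at NCSL01000001.1:221670-221703, so regions at the limit differed widely in their Pho92-HTP level.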

How the data were processed

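The authors deposited 1 peak list per library, not pooled over replicates, with an h2w score per peak and a normalized score, which is that score times 1 spike-in factor per library. The deposited factor is a ratio per the file headers, with the spike-in score of the first Pho92-HTP library on top, and the normalization table also gives the number of peaks and those above 0.9. The submitters' processing notes name cutadapt and Bowtie2 2.4.1, the reads were 75 nt long per the labels, and the peak caller and budding yeast build are not given in the sources used here. Whether coordinates count from 0 or 1 is not stated.

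The no-UV lists were scaled by 0.428 and 0.746 and the untagged lists by 1.13 and 0.771, while the table gives these pairs the other way round. The factors in the lists were used, with those of the table as an alternative. From the values, the score is squared height over width, with height a read density smoothed by a Gaussian of SD 15 nt. Under this reading 63.3% to 92.4% of peaks 32 nt wide gave a whole number of summit reads within 0.01, so depths are given as such reads. No counting interval can be given.

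A region's value is the sum of its normalized scores in a library, or 0. A control peak counted as listed in a region when they shared at least 1 nt on the same strand, and a few control peaks met 2 kept regions. As planned for values that are no counts, scores were tested with limma's trend method (limma 3.58.1, R 4.3.3) on log2(score + 2.28e-05), where the pseudocount is percentile 5 of all scores. Regions above 0.9 in at least 2 libraries of a fit were tested, 964 over all 8 libraries and 961 for the ime4 mutant against Pho92-HTP, and p-values were adjusted over all of them. Calls used an adjusted p threshold of 0.05. A difference against unlisted peaks depends on the pseudocount, and a group listed at 0 in both libraries adds no spread, so its SE and p depend on which peaks were listed. With 2 libraries against 2, the smallest two-sided exact p is 0.33, so single values were not tested that way. The procedure was tested on simulated data. Tables and figures were made in Python 3.11.15 (numpy 2.4.6, pandas 2.3.3, matplotlib 3.10.9, scipy 1.17.1).

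The regions, groupings and lists were chosen with earlier results of these data known. Regions were named by fixed rules: the strongest 10 in the mutant, the 5 largest and 5 smallest differences from Pho92-HTP, those above 0.9 in neither Pho92-HTP library, the 5 highest in each control, the 5 with the lowest difference from each control, those with no control peak, 3 on each side of the limit, and the fullest contigs and clusters. Alternatives tried were scaling, pseudocount, filter, merging distance, square root of the score, replicate block and leaving out each library.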

Additional observations from a re-analysis of the deposited data

How the results depend on the processing

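The regions numbered 314 and 183 with limits of 0.5 and 2, 219 without spike-in factors and 252 with peaks within 50 nt merged; 29 had a control peak when only control peaks above 0.9 counted. Pho92-HTP minus untagged gave 1 region lower without spike-in factors, with library totals and on the square root of the score, and 22 higher and 17 lower under the trimmed mean. Its median log2 difference was 13.52 without spike-in factors, 6.69 with library totals, 1.69 under the trimmed mean, 12.47 and 3.63 with pseudocounts at the median score and 0.9, and 7.28 on the square root. Pho92-HTP minus no UV gave 13, 15 and 42 lower without spike-in factors, with library totals and under the trimmed mean, which called 27 higher. Its median was 10.46, 10.25 and -0.44 in that order, 2.83 with a pseudocount of 0.9 and 6.16 on the square root. No UV minus untagged gave 68 higher with the table's factors, 20 with a pseudocount of 0.9 and 5 with no filter, and 77 lower with library totals, 1 and 0 with pseudocounts at the median and 0.9, 0 with no filter and 3 with peaks within 50 nt merged. Its median was -2.80 with library totals, and 0.56 and 0.00080 with those pseudocounts. The ime4 mutant minus Pho92-HTP gave 205 higher and 5 lower under the trimmed mean (median 5.91), 13 lower without spike-in factors (median 1.43) and 23 higher with no filter. Over all regions of these fits, 498 of 961 were lower without spike-in factors and 200 of 105079 higher with no filter. Under the trimmed mean the median over all tested regions was 12.13 for Pho92-HTP minus untagged and 10.46 for Pho92-HTP minus no UV. For the ime4 mutant minus Pho92-HTP it was -1.66, so this scaling did not set the typical tested region equal between groups. The cause of the shifts was not tested. With single libraries left out, Pho92-HTP minus untagged called 222 to 233 higher and 0 to 2 lower (median 13.84 to 15.77), Pho92-HTP minus no UV 195 to 210 and 0 to 8 (12.29 to 13.49), no UV minus untagged 31 to 54 and 5 to 10 (1.35 to 2.58), and the ime4 mutant minus Pho92-HTP 1 to 4 and 5 to 16 (-0.29 to 1.27). The differences from no UV at NCSL01000002.1:322678-322735, NCSL01000011.1:300989-301020 and NCSL01000005.1:195070-195117 were 0.13, 0.29 and 0.25 without Pho92-HTP replicate 1 and -2.05, -1.43 and -1.28 without replicate 2, the ends of their ranges. Same-numbered libraries did not deviate together (correlations -0.08 to 0.06), which does not show whether they were handled together. With a replicate block, 225 regions were higher over untagged and 198 over no UV. The block gave 34 higher and 6 lower for no UV minus untagged, and 5 higher and 19 lower for the ime4 mutant. Depth limits the control values, as their listed peaks had a median of 6.998 to 17.1 summit reads.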

Other observations

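The deposited control factors matter for levels of single control regions. With the table's factors in place of those in the lists, the median log2 difference in score of the 246 regions was 15.37 for Pho92-HTP minus untagged, 11.82 for Pho92-HTP minus no UV and 3.11 for no UV minus untagged, against 14.89, 12.45 and 2.09 with the factors in the lists.

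Among the 27 regions above 0.9 in a library without UV, 25 were listed in all 8 libraries.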
